A study of Homo sapiens with 24 samples.

Results

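The mitochondrial genome of human cells is a small circular DNA with its own genes, and the RNA of those genes was followed here in a kidney cancer line and a kidney tubule line after knockdown of KDM5C, of YY1 or of both. The genes were taken by position: every gene that the count tables place on the chromosome named MT, 37 of the 60675 genes listed. They were 13 protein-coding genes, 2 rRNAs and 22 tRNAs. The protein-coding genes are called mRNAs below, and the counts do not show whether each is an RNA of its own. The rule that chose the 37 genes used no measured value, but earlier results of these data were known when they were chosen.

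The circle is read as long transcripts that run through many genes, made by the mitochondrial RNA polymerase POLRMT with the factors TFAM and TFB2M. tRNAs lie between most of the mRNAs and rRNAs, and the transcript is cut where the tRNAs begin, by mitochondrial RNase P, and where they end, by ELAC2. The mRNAs encode subunits of the respiratory chain and of the ATP synthase (complexes I, III, IV and V), the rRNAs form the core of the mitochondrial ribosome, and the tRNAs serve translation inside the organelle. Proximal tubule cells, which reabsorb most of what the kidney filters, depend on mitochondria for their energy.

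The RNA-seq data came from ACHN, a renal cancer line that the labels describe as ccRCC, and from HK2, an epithelial line of the human kidney proximal tubule. Each line was grown in DMEM with fetal bovine serum and carried, by lentivirus and puromycin selection, a control hairpin (shNC), a hairpin against the histone H3K4 demethylase KDM5C (shKDM5C), a hairpin against the transcription factor YY1 (shYY1), or hairpins against both (Dsh). The Dsh cells were made from YY1-depleted cells infected again, with a GFP-marked KDM5C hairpin. There were 3 libraries in each of the 8 groups, 24 in all, and 1 cell line of each kind, so that a difference between ACHN and HK2 is a difference between those lines. Which of the hairpins was used for sequencing, and whether total RNA was enriched for poly(A) or depleted of rRNA, are not given in the sources used here. The labels do not say that libraries of a group came from separate cultures, so the p-values measure the spread between these libraries, which may be technical.

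The circle leaves little space between genes. On the hg38 build chrM is 16569 bases long, the 37 genes covered 92.7% of it, and 20 of the 36 pairs of neighbours had no base between them. Of the genes, 28 lie on the plus strand and 9 on the minus strand, the latter being MT-ND6 and 8 tRNAs. The tRNA genes are 59 to 75 bases long, 3 mRNAs (MT-ATP8, MT-ND4L and MT-ND3) are under 350 bases and the other 10 are over 500. The sequences below, read on the plus strand of hg38, are the places where the largest differences of this report lie, and they show how closely the genes concerned are packed. In the overlaps of MT-ATP8 with MT-ATP6 (chrM:8507-8592) and of MT-ND4L with MT-ND4 (chrM:10740-10786) capitals mark the bases that belong to both genes. In the stretch from MT-TN to MT-TC (chrM:5657-5826) capitals mark the bases between those genes, where the origin of light-strand replication lies.
MT-ATP8/MT-ATP6 overlap: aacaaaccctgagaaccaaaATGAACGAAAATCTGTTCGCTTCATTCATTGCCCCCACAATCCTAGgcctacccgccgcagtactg
MT-ND4L/MT-ND4 overlap: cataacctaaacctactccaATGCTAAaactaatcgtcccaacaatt
MT-TN to MT-TC: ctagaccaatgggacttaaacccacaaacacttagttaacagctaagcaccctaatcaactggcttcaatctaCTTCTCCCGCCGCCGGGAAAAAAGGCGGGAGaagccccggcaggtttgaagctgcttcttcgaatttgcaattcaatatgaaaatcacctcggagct
The first overlap is 46 bases long and the second 7, and each opens with the ATG of the downstream gene. The last base of the third sequence is shared by MT-TC and MT-TY, the next tRNA. Reads were counted without regard to strand, so that MT-ND6 and the minus-strand tRNAs cannot be told apart from antisense RNA, and a read pair that lay equally in 2 genes was not counted.

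The libraries held 15926561 to 24272298 counts on genes. KDM5C, given as the group mean as CPM (counts scaled to the size of the library, across all 24 libraries), was 70.4 in ACHN shNC, 42.8 in shKDM5C and 40.5 in Dsh cells, and 192, 56.9 and 68.1 in HK2 (log2 fold changes against shNC of -0.73 and -0.80 in ACHN and of -1.74 and -1.49 in HK2). YY1 was 138 CPM in ACHN shNC, 76.5 in shYY1 and 96.7 in Dsh cells, and 209, 64.2 and 74.1 in HK2 (-0.88, -0.51, -1.70 and -1.49). KDM5C itself was higher in shYY1 cells of both lines, by 0.34 in ACHN and 0.35 in HK2. The kidney epithelial markers PAX8 and KRT8 were present in all 24 libraries, ANPEP, a brush border enzyme of the proximal tubule, was at or near 0 in every library (at most 0.398 CPM), and the leukocyte, endothelial and liver markers PTPRC, CDH5 and ALB did not pass 0.271 CPM. PECAM1, the other endothelial marker, had counts in 22 of the 24 libraries and reached 1.69 CPM. Replicate 1 of HK2 shKDM5C stood apart from the other 23 libraries, with counts on 22966 genes against 24257 to 25740 and with more mitochondrial RNA. Without it KDM5C was 67.5 CPM in HK2 shKDM5C cells (log2 fold change -1.51 ± 0.05, edgeR adjusted p = 1.3e-16), and the results on the mitochondrial genes that rest on it are given with and without it.

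In control ACHN cells, genes of the circle differed widely in counts for their length, although the genes of a strand are read from the same long transcripts. On the scale of CPM per kilobase of gene, MT-CO3 and MT-CO1, both subunits of complex IV, led with 11036 ± 296 and 10845 ± 197 (SD, n = 3), and their ranges overlapped. MT-CO2 (complex IV) followed at 7913 ± 216 CPM per kilobase, then MT-ND4L (complex I) at 7498 ± 188 and MT-ATP6 (ATP synthase) at 6642 ± 391. MT-ND4 and MT-ND1, of complex I, were at 5971 ± 185 and 5241 ± 282 CPM per kilobase. MT-CYB, the only subunit of complex III that the circle encodes, was at 2939 ± 68.3 CPM per kilobase, and MT-ND2, MT-ND5, MT-ND6, MT-ND3 and MT-ATP8 lay below it, down to 1765 ± 75.2. The mRNAs thus spanned 6.25-fold. Among the rRNAs, MT-RNR2 (16S) was at 5100 ± 4.09 and MT-RNR1 (12S) at 667 ± 7.71 CPM per kilobase, which is 7.65-fold apart.

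The tRNAs were far less even. In the same ACHN controls MT-TC, MT-TN and MT-TP, which carry cysteine, asparagine and proline and are read from the minus strand, were at 2031 ± 85.3, 1427 ± 94.7 and 1226 ± 17.3 CPM per kilobase, near the lower mRNAs, whereas the next tRNA, MT-TL1, was at 286 ± 28.2. At the other end MT-TF, MT-TQ and MT-TK were at or below 1.77 CPM per kilobase. 8 tRNAs (MT-TF, MT-TQ, MT-TM, MT-TW, MT-TA, MT-TK, MT-TS2 and MT-TL2), with between 0 and 92 counts in a library, did not pass the filter on low counts in each of the 6 knockdown comparisons, and MT-TA passed in none of them. That left 29 genes for which all 6 can be set side by side. Mature tRNAs are short and folded, so the counts are of what this library preparation captured and not of the tRNA pool of the cell.

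ACHN controls had higher levels than HK2 controls for most mRNAs, and the excess differed widely from gene to gene. Of the 32 members tested, 16 were higher in ACHN (50%) and 8 lower (25%), against 38.6% and 38% of the 16988 genes tested; the median log2 difference of the members was 0.17 and that of all genes 0.02. In complex I all 7 mRNAs were higher, from 0.13 for MT-ND2 to 1.71 ± 0.04 (SE) for MT-ND4L on the log2 scale, and in complex IV all 3 were higher, from 0.37 to 0.67. MT-ATP8, a small subunit of the ATP synthase, had 365, 350 and 381 CPM in the 3 ACHN controls and 55.7, 55.6 and 50.2 in the HK2 controls, a log2 difference of 2.77 ± 0.05 (edgeR, adjusted p = 1.3e-27). Its neighbour MT-ATP6, the proton channel subunit, had 4337, 4404 and 4829 CPM in ACHN and 4391, 4808 and 4364 in HK2, so that the groups overlapped (0.01 ± 0.04, edgeR adjusted p = 0.83). MT-CYB alone among the mRNAs was lower in ACHN, by -0.11 ± 0.03 (edgeR, adjusted p = 0.0014). In HK2 controls the mRNAs spanned 32.5-fold per kilobase, with MT-CO1 at 8453 ± 225 CPM per kilobase and MT-ATP8 at 260 ± 15.

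Both rRNAs were higher in ACHN, MT-RNR2 by 1.15 ± 0.03 (edgeR, adjusted p = 5.2e-24) and MT-RNR1 by 0.15 ± 0.04 (edgeR, adjusted p = 0.0020, with overlapping groups), which leaves MT-RNR2 3.81-fold over MT-RNR1 per kilobase in HK2. Of 17 tRNAs tested, MT-TN, MT-TC and MT-TP were higher in ACHN, by 2.98, 1.67 and 1.33 on the log2 scale, and 7 were lower. The lowest of those were MT-TL2 (-3.43 ± 0.33) and MT-TR (-1.99 ± 0.17), the latter at 2.08, 2.58 and 2.42 CPM in ACHN against 10.0, 8.06 and 10.1 in HK2. MT-TL1 (-0.28 ± 0.09) was no longer called without ACHN shNC replicate 2, where the value was -0.19 (edgeR, adjusted p = 0.067), and MT-ND3 (0.30 ± 0.06) was called although the groups overlapped.

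**Figure D1:**
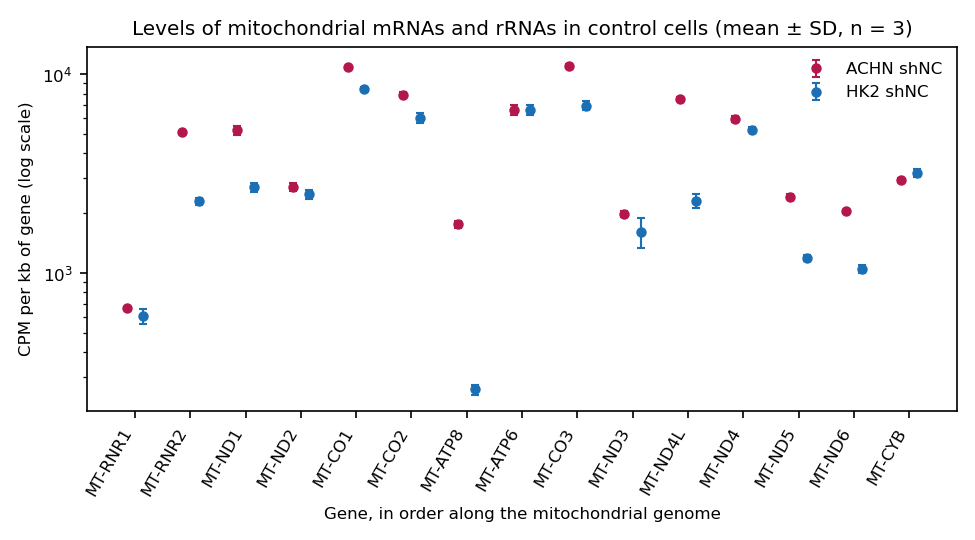
Levels of the 13 mRNAs and 2 rRNAs in the shNC cells of both lines; the log-scaled axis gives CPM per kilobase of gene, points are means of 3 libraries and bars their SD. MT-ATP8 (1765 against 260) and MT-ND4L (7498 against 2309) lie far apart between the lines, and MT-ATP6 nearly coincides.

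Counts on the 37 genes made up 7.15%, 7.21% and 7.40% of all gene counts in the ACHN controls and 5.14%, 5.52% and 5.37% in the HK2 controls. The lines did not overlap, and the difference of 1.91 percentage points was as extreme as a comparison of 3 with 3 allows (two-sided exact permutation test, p = 0.1, the smallest possible). As these are bulk samples, fewer cells rich in mitochondrial RNA and less of it in each cell cannot be told apart. Within ACHN the share was 6.65%, 6.75% and 6.80% with shKDM5C, 6.88%, 7.08% and 7.22% with shYY1 and 6.98%, 7.08% and 6.80% with Dsh. All shKDM5C and Dsh libraries were below all controls, by 0.516 and 0.300 percentage points on average (exact permutation p = 0.1 for each), whereas the shYY1 libraries overlapped with them (a mean difference of -0.193, exact permutation p = 0.3).

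In HK2 the share was 4.77%, 4.89% and 4.81% with shYY1 and 4.75%, 4.79% and 4.78% with Dsh. Both groups were below all HK2 controls, with mean differences of -0.521 and -0.569 percentage points (exact permutation p = 0.1 for each). With shKDM5C it was 11.8%, 5.13% and 5.28%, so that replicate 1 was far above every other library of the series while of the other 2 one lay just below the controls and one among them. The mean difference of 2.07 percentage points (exact permutation p = 0.9) became -0.136 without replicate 1 (exact permutation p = 0.4). Over the 7 comparisons of the share no adjusted p was below 0.14. mRNAs held 84.8% to 92.2% of the mitochondrial counts in a library, rRNAs 7.59% to 14.8% and tRNAs 0.233% to 0.676%. HK2 shKDM5C replicate 1 set the first of these bounds for mRNAs and the last for rRNAs, and without it mRNAs held at least 87.4%.

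**Figure D2:**
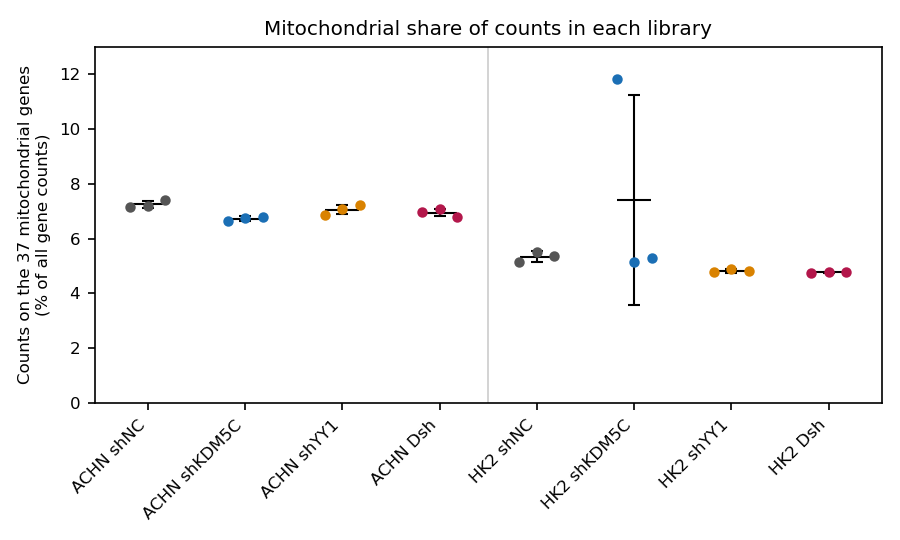
Share of all gene counts that fell on the 37 mitochondrial genes, in percent, in each of the 24 libraries; points are libraries and the bars give the mean and SD of each group of 3. HK2 shKDM5C replicate 1, at 11.8%, is the only library outside 4.75% to 7.40%.

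In ACHN cells with shKDM5C counts on the shortest protein-coding gene fell steeply. Those on several other mRNAs fell by small amounts, and those on a group of tRNAs rose. MT-ATP8 (ENSG00000228253) had 30.9, 26.1 and 24.9 CPM against 365, 350 and 381 in the controls, which is 7.47% of the control mean, or 13.4-fold below it. The groups were far apart, with a log2 fold change of -3.76 ± 0.05 (edgeR, adjusted p = 1.7e-26). MT-ATP6, which shares 46 bases with it, had 4971, 5295 and 5142 CPM against 4337, 4404 and 4829 and was slightly higher in all 3 libraries (0.17 ± 0.03, edgeR adjusted p = 4.6e-05). MT-ND3 of complex I had 419, 520 and 417 CPM against 700, 661 and 697, with no overlap (-0.62 ± 0.05, edgeR adjusted p = 1.1e-10). MT-ND4L, the other short mRNA of complex I, moved far less, with 2017, 2118 and 2015 CPM against 2168, 2279 and 2234 (-0.13 ± 0.03).

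Of the 30 members tested in that comparison 8 were higher (26.7%) and 10 lower (33.3%), against 28.9% and 27.7% of the 16184 genes tested, with medians of 0.05 for the members and -0.01 for all genes. The counts by kind differed: of 13 mRNAs 1 was higher and 8 lower, both rRNAs were lower, and of 15 tRNAs 7 were higher and 0 lower (edgeR; at an unadjusted p under 0.05, 9 tRNAs passed). Among the 10 mRNAs over 500 bases the log2 fold changes ran from -0.33 to 0.17. MT-CYB was at the low end, with 2606, 2734 and 2762 CPM against 3288, 3332 and 3440 (-0.33 ± 0.03, edgeR adjusted p = 9e-11), followed by MT-CO2 (-0.19 ± 0.03) and MT-ND1 (-0.15 ± 0.03). MT-ND1 was called although its groups overlapped, and MT-CO1, MT-ND2, MT-ND4 and MT-ND6 were not called. MT-RNR2 had 7057, 7534 and 7256 CPM against 7948, 7947 and 7959 (-0.14 ± 0.02, edgeR adjusted p = 1.4e-05).

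The tRNA that changed most by count in these cells was MT-TN, which had 167, 175 and 160 CPM against 104, 111 and 97.2 (0.67 ± 0.04, edgeR adjusted p = 1.1e-12). All 3 libraries were above all controls. MT-TY, for tyrosine, rose equally from a lower level (13.2, 13.6 and 14.3 CPM against 7.18, 10.1 and 8.34, 0.67 ± 0.11), whereas MT-TC, which lies between them, had 128, 142 and 133 CPM against 136, 139 and 128 (-0.01 ± 0.04, edgeR adjusted p = 0.83). Smaller tRNAs by count that rose were MT-TE (1.05), MT-TD (0.99), MT-TI (0.94), MT-TG (0.79) and MT-TH (0.43). 6 calls of this comparison depended on single libraries, and among them MT-RNR1 and MT-CO3 also had overlapping groups. MT-RNR1 (-0.10) was lost without shKDM5C replicate 1 or 3, MT-CO3 (-0.07) without shNC replicate 3 or shKDM5C replicate 3, MT-ND5 (-0.06) without shNC replicate 3 or shKDM5C replicate 1 or 2, MT-TI without shNC replicate 1 or shKDM5C replicate 1 or 2, MT-TG without shKDM5C replicate 1, and MT-TH without shNC replicate 1 or 3 or shKDM5C replicate 3 (edgeR, adjusted p between 0.051 and 0.21 without them).

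With shYY1 in ACHN cells the mitochondrial RNAs stayed closer to the controls, and the lower ones included both rRNAs. MT-RNR2 had 6544, 6676 and 7040 CPM against 7948, 7947 and 7959, all below the controls (-0.26 ± 0.02, edgeR adjusted p = 1e-11). MT-RNR1 had 578, 584 and 606 CPM against 639, 642 and 628 (-0.13 ± 0.03, edgeR adjusted p = 6.2e-05), and MT-ND1, the next mRNA on the same strand, had 4239, 4396 and 4703 against 4966, 4765 and 5300 (-0.20 ± 0.03, edgeR adjusted p = 1.6e-06). These 3 genes lie next to each other on the circle, with only tRNAs between them. MT-CYB (-0.10 ± 0.02) was also lower. MT-ND6 (-0.08 ± 0.03) was lower with overlapping groups, a call lost without shNC replicate 1 or shYY1 replicate 1 or 2 (edgeR, adjusted p between 0.054 and 0.15).

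Of the members, MT-CO2 rose in shYY1 cells to 6128, 6296 and 6244 CPM from 5314, 5341 and 5582 (0.18 ± 0.02, edgeR adjusted p = 2.8e-08). MT-TN rose to 144, 137 and 150 CPM (0.44 ± 0.04) and MT-TC to 159, 170 and 172 (0.29 ± 0.04), each with every library above the controls. MT-ATP8, at 358, 385 and 454 CPM, overlapped with the controls (0.10 ± 0.05, edgeR adjusted p = 0.063). In all, 3 of 30 members were higher (10.0%) and 5 lower (16.7%), against 24.2% and 24.5% of the 16370 genes tested, and the medians were 0.05 for the members and -0.01 for all genes. The higher members numbered 5 without shNC replicate 2, 7 without shNC replicate 3 and 6 without shYY1 replicate 1, so that this count rests on those libraries.

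In ACHN cells with both knockdowns counts on the 3 short mRNAs all fell, and the tRNAs split into strong rises and strong falls. MT-ATP8 had 10.1, 7.62 and 8.29 CPM against 365, 350 and 381 in the controls, which is 2.37% of the control mean, or 42.2-fold below it (-5.40 ± 0.07, edgeR adjusted p = 5.1e-20). MT-ND4L (ENSG00000212907) had 684, 345 and 334 CPM against 2168, 2279 and 2234, or 20.4% of the control mean (-2.29 ± 0.17, edgeR adjusted p = 1.5e-09). MT-ND3 (ENSG00000198840) had 301, 114 and 123 CPM against 700, 661 and 697, or 26.1% (-1.93 ± 0.22, edgeR adjusted p = 4.7e-07). No Dsh library reached a control in these 3 genes, and replicate 1 was the highest of the Dsh libraries in each.

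Of 30 members tested in Dsh cells 11 were higher (36.7%) and 13 lower (43.3%), against 30.7% and 32% of the 16454 genes tested. The medians were near 0, at -0.02 for the members and -0.01 for all genes, with large changes of both signs. The 10 mRNAs over 500 bases ran only from -0.49 to 0.22. In complex I, MT-ND6, the minus-strand mRNA, had 810, 749 and 744 CPM against 1098, 1078 and 1073 (-0.49 ± 0.04, edgeR adjusted p = 8.6e-09), MT-ND5 was lower by -0.38 ± 0.04, and MT-ND2 (0.22 ± 0.04) and MT-ND1 (0.15 ± 0.04) were higher. In complex IV, MT-CO2 had 4395, 4000 and 3867 CPM against 5314, 5341 and 5582 (-0.40 ± 0.04, edgeR adjusted p = 1.9e-07), while MT-CO1 was higher, at 18294, 19015 and 17911 CPM against 16516, 17071 and 16582 (0.14 ± 0.03). MT-CYB, MT-ATP6, MT-ND4 and MT-RNR1 were not called, and MT-RNR2 was lower by -0.10 ± 0.03. MT-RNR2 was in this way the only member called lower in each of the 3 ACHN knockdowns, in Dsh not without replicate 3 (-0.07, edgeR adjusted p = 0.062).

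In the cluster of minus-strand tRNAs, too, neighbouring genes differed in sign and size. MT-TN (ENSG00000210135) had 4.87, 2.15 and 1.71 CPM in Dsh cells against 104, 111 and 97.2, or 2.80% of the control mean (-5.19 ± 0.16, edgeR adjusted p = 4.2e-15). MT-TY (ENSG00000210144) had 138, 179 and 171 CPM against 7.18, 10.1 and 8.34, 19.0-fold over the control mean (4.26 ± 0.11, edgeR adjusted p = 2.2e-16). MT-TC, which lies between them and touches MT-TY, had 125, 126 and 119 CPM against 136, 139 and 128 (-0.12 ± 0.05, edgeR adjusted p = 0.042). A fall of one outer gene and a rise of the other therefore stood beside a middle gene that barely differed. MT-TP had 30.6, 11.9 and 10.2 CPM against 82.7, 82.7 and 84.7 (-2.26 ± 0.22, edgeR adjusted p = 5.4e-08), and MT-TH had 1.44, 0.938 and 0.447 against 3.49, 5.59 and 4.63 (-2.31 ± 0.30). MT-TI, at 0, 0.221 and 0.203 CPM against 0.729, 0.860 and 0.861, was lower too (-2.45 ± 0.57, edgeR adjusted p = 0.0011).

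The other tRNAs called in Dsh cells were higher. MT-TL1, which carries leucine and follows MT-RNR2, had 48.9, 51.4 and 44.7 CPM against 23.0, 19.0 and 22.4 (1.17 ± 0.08, edgeR adjusted p = 3.5e-10). MT-TV, for valine, had 4.52, 4.53 and 5.12 CPM against 1.51, 1.72 and 1.61, and MT-TT, for threonine, had 5.03, 4.36 and 3.74 against 1.09, 1.51 and 0.861 (1.55 ± 0.19 and 1.92 ± 0.24). MT-TL2, MT-TS1, MT-TG and MT-TE rose by 0.60 to 1.18 on the log2 scale. 5 calls were lost without single libraries: MT-TE without any one of 5 libraries (all but Dsh replicate 3), MT-TC without shNC replicate 1 or 2 or Dsh replicate 3, MT-CO3 (-0.14, with overlapping groups) without shNC replicate 3 or Dsh replicate 2, MT-TG without Dsh replicate 1 and MT-RNR2 without Dsh replicate 3 (edgeR, adjusted p between 0.052 and 0.16 without them).

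**Figure D3:**
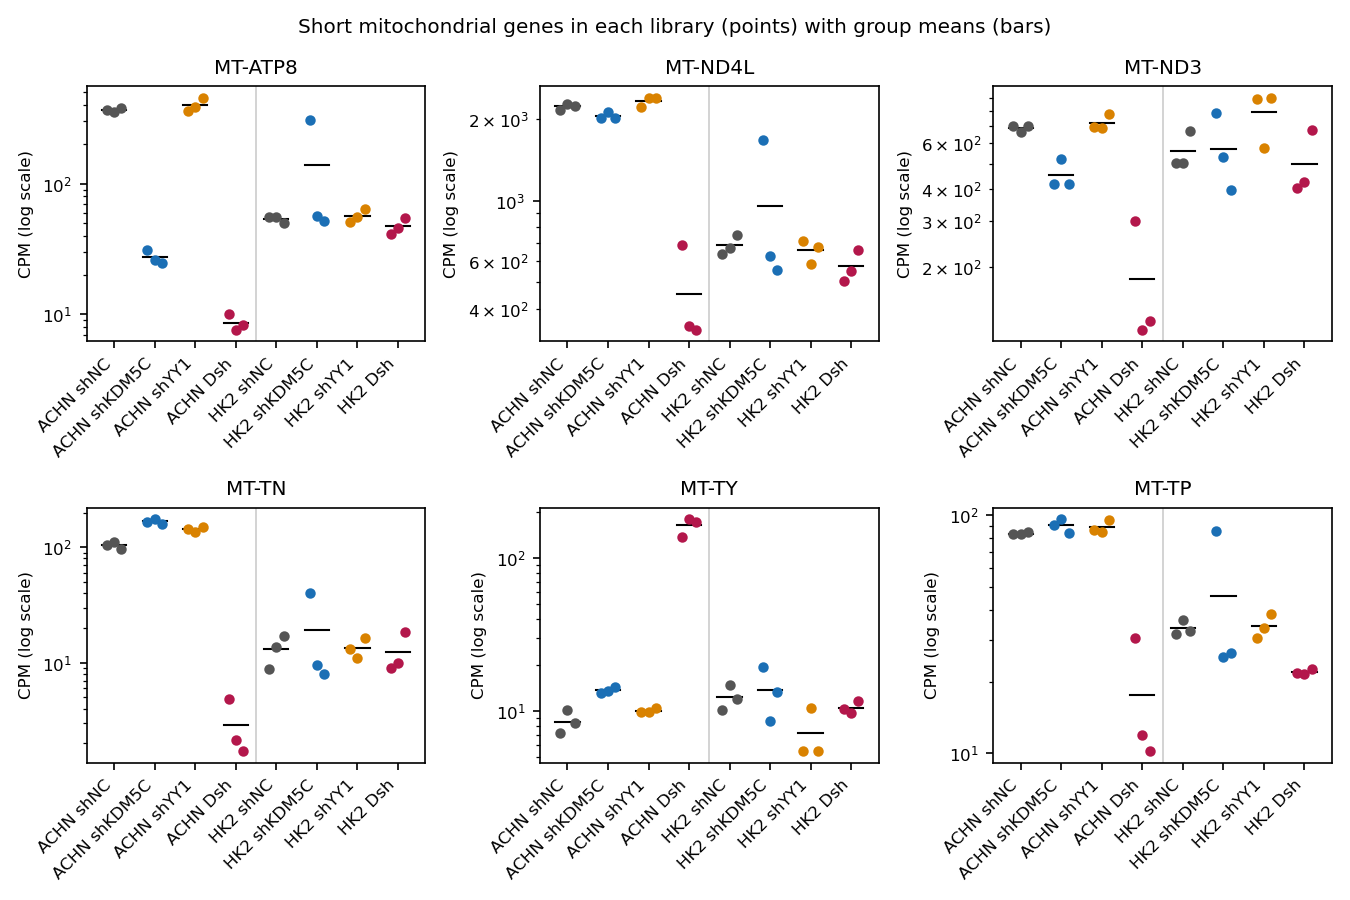
CPM (log-scaled axes that differ between panels) of MT-ATP8, MT-ND4L, MT-ND3, MT-TN, MT-TY and MT-TP in the 24 libraries, grouped by line and hairpin; points are libraries and bars group means. In ACHN Dsh cells MT-TY was at 138 to 179 CPM, above every other library, and the other 5 genes were below all ACHN controls.

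Counts were also summed over neighbours, and each sum is led by its more abundant gene. In ACHN, MT-ATP8 and MT-ATP6 together had 4889 ± 279 CPM in the controls, 5163 ± 159 with shKDM5C, 5077 ± 186 with shYY1 and 4793 ± 253 with Dsh (SD, n = 3; exact permutation p = 0.3, 0.4 and 0.7 against the controls). MT-ND4L and MT-ND4 together had 10454 ± 261 CPM in the controls and 8643 ± 332 with Dsh, a log2 ratio of -0.27 without overlap (exact permutation p = 0.1, the smallest possible). MT-TN, MT-TC and MT-TY together had 247 ± 13.2 CPM in the controls, 315 ± 13.4 with shKDM5C, 320 ± 10.5 with shYY1 and 289 ± 19.6 with Dsh (log2 ratios of 0.35, 0.38 and 0.23; exact permutation p = 0.1 for each). The 3 mRNAs under 350 bases summed to 3279 ± 40.4 CPM in the controls and 642 ± 305 with Dsh, and the 10 longer mRNAs to 60211 ± 1345 and 59732 ± 1227. The mRNAs that fell most were thus the 3 shortest, and MT-ATP8 and MT-ND4L overlap a neighbour. The part of gene length and overlap in these values was not tested, since the tables hold no fragment lengths and no uncounted pairs.

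As ratios within a library, MT-ATP8 per 100 counts of MT-ATP6 was 7.89 to 8.42 in ACHN shNC, 7.87 to 9.42 in shYY1, 0.484 to 0.622 in shKDM5C and 0.151 to 0.221 in Dsh cells. Every shKDM5C and Dsh library was therefore far below every shNC and shYY1 library, and shNC and shYY1 overlapped. MT-ND4L per 100 MT-ND4 was 24.4 to 28.3 in the ACHN groups other than Dsh and 3.98 to 8.70 in Dsh. MT-TY per 100 MT-TC was 5.29 to 10.8 in those groups and 110 to 143 in Dsh.

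The interaction term, Dsh minus shKDM5C minus shYY1 plus shNC in a fit of all 12 ACHN libraries, asks whether the Dsh cells differed from the sum of the single knockdowns on the log2 scale. YY1 was reduced less in Dsh than in shYY1 cells (96.7 against 76.5 CPM in ACHN, 74.1 against 64.2 in HK2). The Dsh cells had also been infected again, and these differences cannot be told apart from a joint action of the knockdowns. Of 33 members tested 8 were higher (24.2%) and 15 lower (45.5%) than that sum, against 26.8% and 28.8% of the 17228 genes tested. MT-TN (-6.33 ± 0.16, edgeR adjusted p = 7.1e-21) and MT-TY (3.34 ± 0.16, edgeR adjusted p = 4.6e-15) had the largest terms in the tRNA cluster, and MT-TN is one that rose in both single knockdowns and fell in Dsh. MT-ND4L (-2.23 ± 0.20), MT-ATP8 (-1.77 ± 0.13) and MT-ND3 (-1.38 ± 0.27) fell below the sum, as did MT-TI (-4.07), MT-TH (-3.14) and MT-TP (-2.46). MT-ND1 (0.47 ± 0.06), MT-CYB (0.44 ± 0.05) and both rRNAs (0.27 for MT-RNR2, 0.18 for MT-RNR1) were above it.

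**Figure D4:**
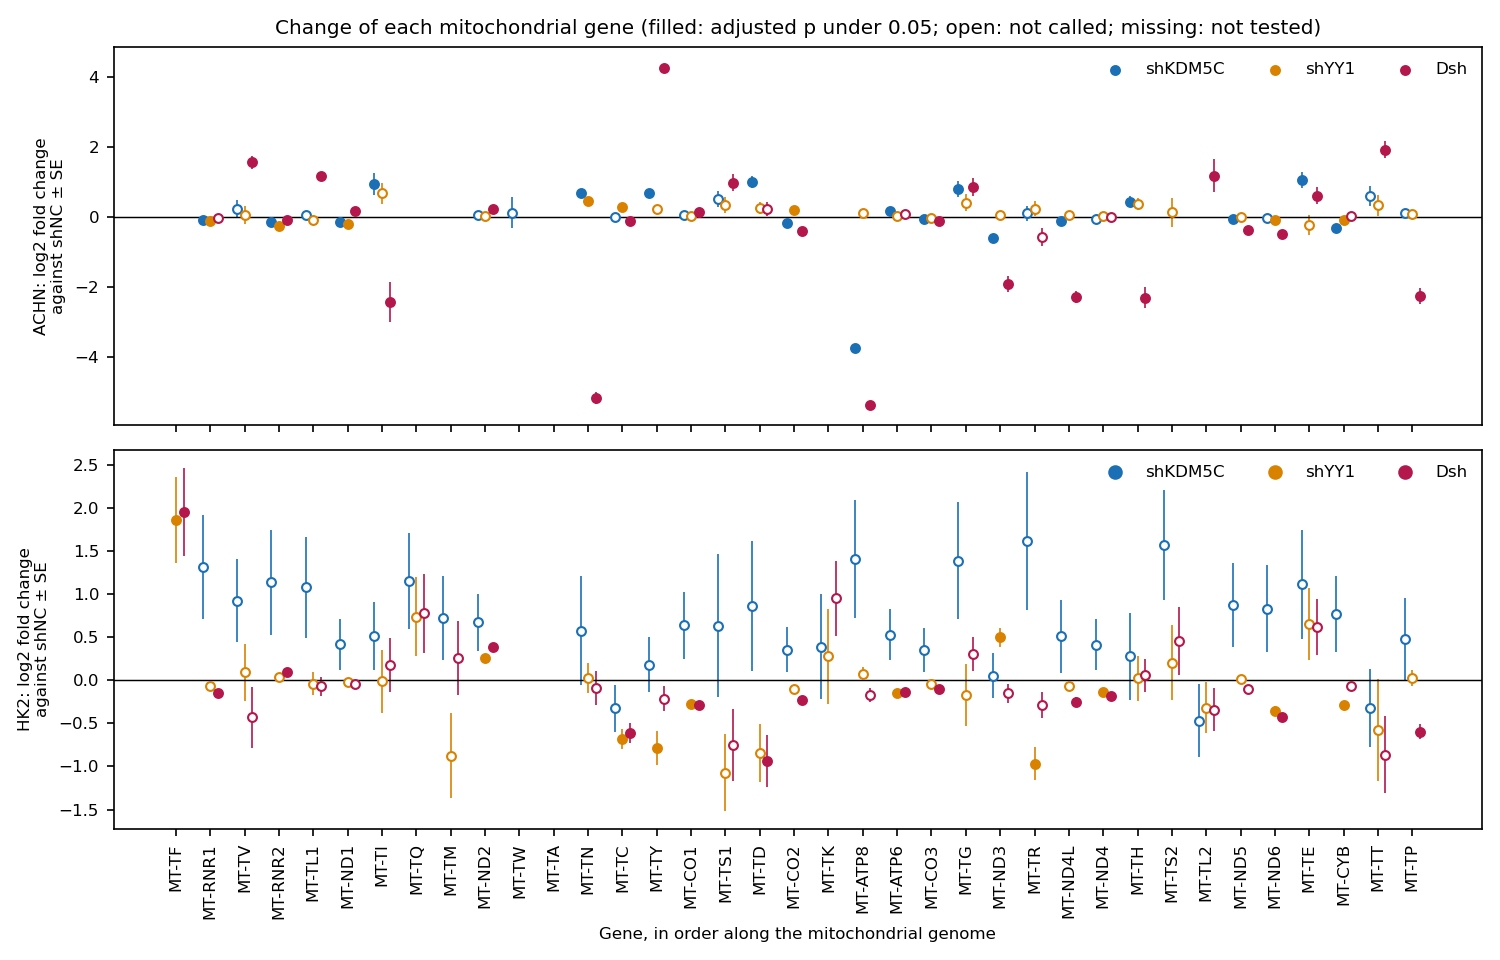
Log2 fold change against shNC of the 37 genes in the order of the circle, ACHN above and HK2 below on different scales; filled points had an edgeR adjusted p under 0.05, open points not, missing ones were not tested, and bars are SE. The points farthest from 0 are MT-ATP8 (-5.40), MT-TN (-5.19) and MT-TY (4.26) in ACHN Dsh, and the wide bars in HK2 are those of shKDM5C.

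HK2 cells with shYY1 differed from their controls by smaller amounts, and no mRNA moved by more than 0.50 on the log2 scale. MT-CO1, the catalytic subunit of complex IV, had 10397, 11058 and 10871 CPM against 12807, 13434 and 12862 (-0.27 ± 0.03, edgeR adjusted p = 1.2e-06). MT-ND6 had 424, 406 and 468 CPM against 528, 576 and 551 (-0.35 ± 0.05, edgeR adjusted p = 1.8e-05), and MT-CYB had 3091, 2967 and 2922 against 3448, 3759 and 3720 (-0.28 ± 0.04, edgeR adjusted p = 7.6e-06). MT-ND2 went the other way, with 3068, 3092 and 3155 CPM against 2470, 2729 and 2601 (0.26 ± 0.04, edgeR adjusted p = 2.8e-05). In all 4 genes the groups did not overlap. MT-ATP6 (-0.14) and MT-ND4 (-0.14) were lower too, the former not without shNC replicate 2 (-0.10, edgeR adjusted p = 0.097).

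MT-ND3 was called higher in HK2 shYY1 cells (0.50 ± 0.11, edgeR adjusted p = 0.0018) from values that overlapped, 892, 576 and 901 CPM against 505, 504 and 668, and DESeq2 gave an adjusted p of 0.11. The libraries with high MT-ND3 in these groups and in Dsh (shNC replicate 3, shYY1 replicates 1 and 3, and Dsh replicate 3) also had the highest counts of their groups on the nuclear copies MTATP6P1 (6524, 8832, 8373 and 5432 counts) and MTCO1P12 (876, 829, 921 and 514). Other copies did not all follow. MTND2P28 was highest in shNC replicate 3 and Dsh replicate 3 (3001 and 3738 counts), but in shYY1 it was highest in replicate 2 (3139 against 2927 and 2888). MTCO3P12 was highest in replicate 2 of shNC, shYY1 and Dsh (40, 37 and 49 counts). The part of these copies in the MT-ND3 call was not tested. MT-TC was lower, with 21.5, 28.0 and 29.9 CPM against 34.5, 42.8 and 49.9 (-0.68 ± 0.12), as were MT-TY (-0.78) and MT-TR (-0.97), and MT-TF was higher (1.87 ± 0.50) at 31 counts or fewer in any library. Of 35 members 3 were higher (8.57%) and 8 lower (22.9%), against 14.3% and 14.7% of the 16071 genes tested, with medians of -0.05 and 0.01. The lower members numbered 13 without shYY1 replicate 2, the library of its group with the most tRNA counts.

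In HK2 Dsh cells, compared with the same controls, MT-CO1 and MT-ND6 were lower and MT-ND2 higher. MT-CO1 had 10760, 10640 and 10572 CPM (-0.28 ± 0.03, edgeR adjusted p = 4.8e-10), MT-ND6 had 384, 399 and 442 (-0.42 ± 0.05, edgeR adjusted p = 4.3e-09) and MT-ND2 had 3453, 3315 and 3362 (0.39 ± 0.04, edgeR adjusted p = 8.9e-11), none of them overlapping with the controls. All 3 mRNAs of complex IV were lower, MT-CO2 by -0.23 ± 0.03 and MT-CO3 by -0.10 ± 0.03. MT-ND4 fell to 6205, 6440 and 6364 CPM from 7033, 7440 and 7281 (-0.19 ± 0.03, edgeR adjusted p = 5e-06). MT-TP had 21.8, 21.6 and 22.5 CPM against 31.5, 36.3 and 32.6, or 65.6% of the control mean (-0.60 ± 0.09, edgeR adjusted p = 9.4e-07).

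The short mRNAs did not fall in HK2 Dsh cells as they did in ACHN. MT-ATP8 had 41.4, 45.9 and 55.0 CPM against 55.7, 55.6 and 50.2 (-0.17 ± 0.08, edgeR adjusted p = 0.074). It was called without Dsh replicate 3 (-0.29, edgeR adjusted p = 0.0026), without shNC replicate 3 (-0.22, edgeR adjusted p = 0.043) and with total counts as scaling (-0.21, edgeR adjusted p = 0.027). MT-ND4L had 506, 553 and 659 against 638, 669 and 750 (-0.25 ± 0.06, edgeR adjusted p = 0.00091, DESeq2 adjusted p = 0.11). Both genes had overlapping groups. MT-ND3 had 402, 426 and 673 CPM and was not called in the test used here. It was called without Dsh replicate 3 (-0.42, edgeR adjusted p = 3.9e-06), with no filter on low counts (-0.15, edgeR adjusted p = 0.0016) and with the replicate number as a block (-0.17, edgeR adjusted p = 0.00076). MT-TN, at 9.01, 9.87 and 18.3 CPM against 8.88, 13.8 and 17.1, and MT-TY, at 9.70 to 11.7 against 10.2 to 14.7, were not called. In all 3 of 35 members were higher (8.57%) and 11 lower (31.4%), against 25.5% and 24.3% of the 16217 genes tested, with medians of -0.14 and 0.00. Calls lost without single libraries were those of MT-RNR1 (-0.15; shNC replicate 3, Dsh replicate 1 or 2), MT-RNR2 (0.09; shNC replicate 1 or 2, Dsh replicate 3), MT-CO3 (shNC replicate 2 or 3, Dsh replicate 2), MT-ATP6 (-0.14; shNC replicate 2) and MT-TD (-0.93; Dsh replicate 2), with edgeR adjusted p between 0.056 and 0.24.

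In HK2 shKDM5C cells no member passed the test, and replicate 1 lay far from the other 2. Of 34 members edgeR called 0 higher and 0 lower, against 0.668% and 0.656% of the 16161 genes tested; at an unadjusted p under 0.05 there were 1 higher (MT-TS2) and 0 lower, and DESeq2 called 0 and 0. All 13 mRNAs had log2 fold changes above 0 (0.06 to 1.41, median 0.53), while the median of all genes was 0.00. Replicate 1 carried these values. MT-CO1 had 33692 CPM in it and 12565 and 13178 in replicates 2 and 3, beside 12807, 13434 and 12862 in the controls. MT-RNR2 had 16224 CPM in it and 3479 and 3326 in the others, and MT-CYB had 10999 against 3517 and 3739.

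Replicate 1 was above all 11 other HK2 libraries in 14 of the 15 mRNAs and rRNAs and in 16 tRNAs. The like share over all genes was not worked out, so these counts are not read as particular to the mitochondrial genes. Replicate 1 also differed over all genes compared, with a mean chi-square per gene of 129 and 123 against replicates 2 and 3. Between replicates 2 and 3 that mean was 3.20, whereas replicate 1 stood apart from both. Its excess over the mean of replicates 2 and 3 was not even: it was 1.69-fold for MT-ND3, the one mRNA within the range of the others, 4.62-fold for MT-RNR1, 4.77-fold for MT-RNR2 and 5.72-fold for MT-ATP8, with a median of 2.62-fold. MT-ATP8 per 100 MT-ATP6 was 3.19 in it and 0.989 to 1.61 in the other HK2 libraries. It also held 1104 CPM on 7 nuclear copies of mitochondrial genes against 367 and 428, and 35.9 CPM of KDM5C against 67.9 and 67.0. The part of these measures in the mitochondrial values was not tested.

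Without replicate 1, the medians of the mRNAs were near 0 (-0.04) and a few members were called. MT-ND2 was higher (0.13, edgeR adjusted p = 0.0043), and MT-RNR2 (-0.085, edgeR adjusted p = 0.048), MT-ND3 (-0.27), MT-ND4L (-0.22) and the tRNAs MT-TC (-0.67), MT-TN (-0.59), MT-TP (-0.37) and MT-TL2 (-0.97) were lower, 1 and 7 of 34 members, against 11.5% higher and 10.9% lower of the 16642 genes tested. MT-ATP8 had 56.0 and 51.8 CPM in replicates 2 and 3, within the 50.2 to 55.7 of the controls or just above it. The interaction term in HK2 was called for 0 of 35 members in either direction, against 5.21% higher and 4.4% lower of the 17093 genes tested. At an unadjusted p under 0.05 there were 0 higher and 3 lower (MT-RNR1, MT-TV and MT-ATP8), and DESeq2 called 0 and 0. Without replicate 1 it was called for MT-TC (0.75) and MT-CYB (0.23), both higher, 2 of 35 members, and for 0 lower, against 15% and 13.7% of the 17642 genes tested.

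**Figure D5:**
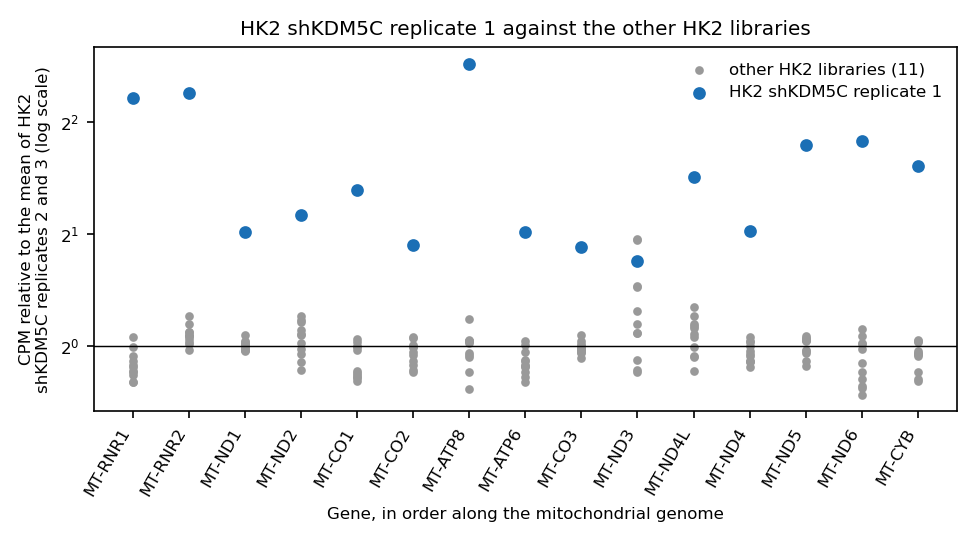
CPM of each mitochondrial mRNA and rRNA relative to the mean of HK2 shKDM5C replicates 2 and 3 (log-scaled axis), for replicate 1 (large points) and the 11 other HK2 libraries (small points). The folds of replicate 1 run from 1.69 for MT-ND3 to 5.72 for MT-ATP8.

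The effect of each hairpin was compared between the lines by the difference of the log2 fold changes. For Dsh, 12 of 35 members were higher in ACHN relative to HK2 (34.3%) and 12 lower (34.3%), against 23.3% and 22.7% of the 18087 genes tested. MT-ATP8 differed by -5.21 ± 0.12 (edgeR, adjusted p = 9.2e-24), MT-TN by -5.08 ± 0.32 (edgeR, adjusted p = 1.8e-13), MT-TY by 4.48 ± 0.18 (edgeR, adjusted p = 4.1e-18), MT-ND4L by -2.02 ± 0.21 and MT-ND3 by -1.77 ± 0.29. For MT-CO1, which fell in HK2 and rose in ACHN, the difference was 0.44 ± 0.04 (edgeR, adjusted p = 8.7e-10), and MT-ND6, which fell in both lines, had a difference of -0.05 ± 0.07 (edgeR, adjusted p = 0.58).

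For shYY1, 12 of 35 members were higher in ACHN relative to HK2 (34.3%) and 4 lower (11.4%), against 16.6% and 16.5% of the 18010 genes tested. The higher ones included MT-TC (0.98 ± 0.13), MT-CO1 (0.30 ± 0.04), MT-CO2 (0.30 ± 0.05), MT-ND6 (0.28 ± 0.06) and MT-CYB (0.19 ± 0.05). The lower ones were MT-RNR2 (-0.28 ± 0.05), MT-ND1 (-0.16), MT-ND2 (-0.21) and MT-ND3 (-0.44), and they numbered 2 without HK2 shNC replicate 1. For shKDM5C only MT-ATP8 was called, lower in ACHN by -5.14 ± 0.78 (edgeR, adjusted p = 0.0015), 1 of 35 members (2.86%) against 6.18% of the 17948 genes tested, and 0 were higher against 5.74% (1 at an unadjusted p under 0.05, MT-TL2; 0 by DESeq2, which also called none lower). Without HK2 shKDM5C replicate 1 there were 10 higher and 5 lower of 35, against 18.6% and 15.4% of the 18527 genes tested, among them MT-ATP8 (-3.75) and MT-CYB (-0.31) lower and MT-TN (1.27) and MT-TD (1.71) higher.

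The nuclear genes that transcribe, cut and degrade mitochondrial RNA were described from lists. The shares of all genes called higher and lower, against which each list count is read, were 28.9% and 27.7% in ACHN shKDM5C, 24.2% and 24.5% in shYY1 and 30.7% and 32% in Dsh, and 0.668% and 0.656%, 14.3% and 14.7%, and 25.5% and 24.3% in HK2. For HK2 shKDM5C they were 11.5% and 10.9% without replicate 1. Of 18 genes for transcription and replication of the circle, 9 were higher and 2 lower in ACHN shKDM5C, 7 and 4 in shYY1 and 5 and 8 in Dsh, and in HK2 there were 0 and 0 (0 and 1 without shKDM5C replicate 1), 2 and 3, and 0 and 7. The list medians of the log2 fold change were 0.23, 0.03 and -0.21 in ACHN and -0.11, 0.08 and -0.19 in HK2, beside medians of all genes between -0.01 and 0.01. TFAM, which packs the circle and starts its transcription, was higher in ACHN shKDM5C (0.38 ± 0.04) and lower in HK2 shYY1 (-0.35 ± 0.07) and HK2 Dsh (-0.94 ± 0.06, edgeR adjusted p = 1.2e-14). In ACHN Dsh POLRMT (0.70 ± 0.05) and MRPL12 (0.97 ± 0.12), a ribosomal protein that binds POLRMT, were higher, and SSBP1 (-0.91 ± 0.07), the single-stranded DNA binding protein of mitochondria, and MTERF3 (-0.66 ± 0.11) were lower.

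Of 21 genes for processing and decay of mitochondrial RNA, 11 were higher and 0 lower in ACHN shKDM5C, 5 and 3 in shYY1 and 8 and 3 in Dsh, with medians of 0.19, 0.01 and 0.07. In HK2 they were 0 and 0 (1 and 1 without shKDM5C replicate 1), 4 and 4, and 1 and 8, with medians of 0.09, 0.02 and -0.077. SLIRP, which with LRPPRC stabilises mitochondrial mRNAs, was lower in ACHN Dsh (-1.65 ± 0.21, edgeR adjusted p = 1.6e-06) and higher in HK2 shYY1 (0.68 ± 0.12). ELAC2, which cuts tRNAs at their 3′ ends, was higher in ACHN Dsh (0.55 ± 0.05), and TRMT10C (0.41 ± 0.08), a subunit of mitochondrial RNase P, and FASTKD5 (0.49 ± 0.07), which acts at mRNA ends that no tRNA marks, were higher in ACHN shKDM5C. HSD17B10, another subunit of that RNase P, was lower in ACHN Dsh (-0.46 ± 0.08).

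Of 15 regulators of mitochondrial biogenesis, 8 were higher and 4 lower in ACHN shKDM5C, 4 and 6 in shYY1 and 4 and 2 in Dsh, and 1 and 0 (2 and 1 without shKDM5C replicate 1), 3 and 4, and 5 and 6 in HK2. The medians were 0.15, 0.07 and 0.07 in ACHN and 0.13, -0.02 and 0.00 in HK2. PPARGC1B, a coactivator of that programme, was the only one called in HK2 shKDM5C (1.39 ± 0.17, and 1.39 ± 0.16 without replicate 1) and was lower in ACHN Dsh (-0.82 ± 0.12), and PPARGC1A was lower in ACHN than in HK2 controls by -4.67 ± 0.11. Of the mitophagy genes, by which damaged mitochondria are removed, 5 were higher and 4 lower, 4 and 4, and 4 and 4 of 12 in ACHN, and 0 and 0 (1 and 2 without shKDM5C replicate 1), 7 and 0, and 8 and 2 of 11 in HK2. Their medians were 0.01, -0.07 and 0.02 in ACHN and 0.09, 0.21 and 0.21 in HK2. PINK1, the kinase that marks damaged mitochondria, was lower in ACHN Dsh (-1.22 ± 0.09), and the mitophagy receptor BNIP3 was higher in HK2 shYY1 (1.02 ± 0.06). Of the nuclear copies of mitochondrial genes, which can share reads with the members, 1 was higher and 4 lower of 5 tested in ACHN shKDM5C, 0 and 0 of 6 in shYY1 and 0 and 2 of 6 in Dsh, and 0 and 0 (0 and 2 without shKDM5C replicate 1), 2 and 0, and 1 and 2 of 5 in HK2. Their medians were -0.45, 0.06 and -0.38 in ACHN and 0.23, 0.25 and -0.10 in HK2, the first of the latter being -0.33 without replicate 1. MTCO1P12 was lower in ACHN shKDM5C (-0.90 ± 0.06) and Dsh (-0.92 ± 0.08), where MT-CO1 itself was not called and higher, and MTND2P28 was higher in ACHN shKDM5C (0.81 ± 0.04), where MT-ND2 was not called. The kidney markers moved with the knockdowns too: of 8 tested, 3 were higher and 5 lower, 5 and 3, and 3 and 5 in ACHN (shKDM5C, shYY1 and Dsh) and 0 and 0 (4 and 1 without shKDM5C replicate 1), 2 and 4, and 3 and 4 in HK2. Their medians were -0.11, 0.33 and -0.26 in ACHN and 0.12, -0.50 and -0.62 in HK2. CDH1 was lower by -3.16 in ACHN Dsh and KRT18 by -1.39 in HK2 Dsh, and the part of these markers in the mitochondrial values was not tested.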

How the data were processed

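RNA-seq libraries of 24 samples, 3 in each of 8 groups, were used, with groups taken from the labels. The authors extracted RNA with TRIzol, aligned reads with HISAT2 2.0.5, and assigned pairs to genes with featureCounts (1.5.0-p3 in the submitters' processing notes, v2.0.1 in the file headers) on the Ensembl annotation of GRCh38; the deposited values are raw counts, not normalised. No strand, multi-mapping or overlap option was set, so that pairs from repeats or lying equally in 2 genes were not counted, and counts of short, overlapping genes depend on fragment size, which the files do not hold.

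Counts were tested with edgeR 4.0.16 in R 4.3.3 (limma 3.58.1): filterByExpr, TMM scaling, quasi-likelihood F test, Benjamini-Hochberg adjustment over all genes tested, called at an adjusted p under 0.05 with any fold change. Comparisons of 2 groups used their 6 libraries, interactions and differences between lines 12. CPM were scaled by TMM over all 24 libraries. Shares and sums were compared by two-sided exact permutation tests of 3 against 3 (smallest p 0.1; scipy 1.17.1, Python 3.11.15). The test was checked on counts simulated with the same spread for every gene and library. The real libraries were less even, above all HK2 shKDM5C replicate 1, and the check does not cover such libraries. Depth was 15926561 to 24272298 counts a library; intervals and errors cover the spread between libraries. Sequences were read from hg38, whose chrM carries all 37 genes at the same coordinates in GENCODE.

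Members and lists were chosen with earlier results of these data known. The 13 mRNAs, 2 rRNAs and the 14 tRNAs that passed the filter in all 6 knockdown comparisons were described with values; of each nuclear list, at most the 2 higher and 2 lower called genes of largest fold change, with a mean of at least 10 CPM and no overlap, and KDM5C and YY1 as the targets, could be named. The other tRNAs were named for low levels, for the filter, or where a test called them or had an unadjusted p under 0.05. Some were given with values, and all were named after their values were seen. Alternatives were other scalings (RLE, total counts, TMM on nuclear genes), no filter, DESeq2 1.42.0, leaving out each library, and the replicate number as a block. Replicate numbers did not pair the samples. The header of the file of ACHN Dsh replicate 2 gives the output name of replicate 1 and the input reads of replicate 2, and it was used under its label.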

Additional observations from a re-analysis of the deposited data

Results flagged for a closer look

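Effects that differed between the lines (edgeR's test of the difference of log2 fold changes, ACHN minus HK2, adjusted p under 0.05) were found as follows, with no explanation tested. For shKDM5C there was 1, MT-ATP8 (-5.14).

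For shYY1 there were differences in the mRNAs MT-CO1 (0.30), MT-CO2 (0.30), MT-ND6 (0.28), MT-CYB (0.19), MT-ATP6 (0.18), MT-ND4 (0.17), MT-ND1 (-0.16), MT-ND2 (-0.21) and MT-ND3 (-0.44), in MT-RNR2 (-0.28), and in the tRNAs MT-TM (1.91), MT-TS1 (1.43), MT-TR (1.21), MT-TD (1.11), MT-TY (1.01) and MT-TC (0.98).

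For Dsh the mRNAs MT-CO1 (0.44), MT-ATP6 (0.24), MT-ND1 (0.22) and MT-ND4 (0.20) were higher in ACHN relative to HK2, and MT-ND2 (-0.14), MT-CO2 (-0.16), MT-ND5 (-0.26), MT-ND3 (-1.77), MT-ND4L (-2.02) and MT-ATP8 (-5.21) lower, with MT-RNR2 at -0.18. Of the tRNAs, MT-TY (4.48), MT-TT (2.80), MT-TV (2.00), MT-TS1 (1.74), MT-TL2 (1.53), MT-TL1 (1.26), MT-TD (1.19) and MT-TC (0.51) were higher and MT-TP (-1.64), MT-TS2 (-1.65), MT-TH (-2.36), MT-TI (-2.61) and MT-TN (-5.08) lower.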

How the results depend on the processing

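Most results kept their call, or lack of one, under the alternatives. Among values of single genes 2307 kept it, and 57 lost and 67 gained a call. Another 5 turned in sign and were then called, all 5 in HK2 shKDM5C without replicate 1. Genes that turned in sign there with no call in either fit, such as MT-CO1 (0.64 to -0.02), are among the 2307. Over the libraries left out, the log2 fold changes of those 5 in HK2 shKDM5C ran from -0.085 to 1.5 (MT-RNR2), -0.59 to 0.96 (MT-TN), -0.27 to 0.27 (MT-ND3), -0.22 to 0.79 (MT-ND4L) and -0.37 to 0.78 (MT-TP), the lowest each without replicate 1. The share difference of HK2 shKDM5C turned likewise (-0.136), and that of HK2 Dsh turned when only the 2 rRNAs were counted (0.00792 percentage points, exact permutation p = 0.7). Counts of members moved as follows, and the cause was not tested: higher in ACHN shYY1, 5 with no filter; lower in the HK2 interaction, 16 with no filter; lower in ACHN relative to HK2 for shKDM5C, 2 with no filter and 0 by DESeq2, and for shYY1, 2 by DESeq2. With total counts as scaling the median of all genes in the ACHN interaction moved by 0.11. DESeq2 lost 8 calls of single genes (DESeq2 adjusted p from 0.056 to 0.11). They were MT-TH in ACHN shKDM5C, MT-TC and MT-TE in ACHN Dsh, and MT-RNR1 between the controls. In HK2 they were MT-TY and MT-ND3 with shYY1 and MT-RNR2 and MT-ND4L with Dsh.

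Leaving out 1 library at a time, the share differences ranged from -0.568 to -0.443 (ACHN shKDM5C), -0.274 to -0.101 (shYY1) and -0.362 to -0.223 (Dsh), from -0.136 to 3.21, -0.622 to -0.433 and -0.669 to -0.480 in HK2, and from 1.81 to 2.00 between the controls. Higher and lower members numbered 7 to 10 and 8 to 11 (ACHN shKDM5C), 3 to 7 and 4 to 5 (shYY1), 9 to 11 and 12 to 15 (Dsh), 0 to 1 and 0 to 7 (HK2 shKDM5C), 2 to 3 and 7 to 13 (shYY1), 2 to 3 and 8 to 16 (Dsh), 16 to 17 and 9 to 10 (controls), 7 to 9 and 13 to 15 (ACHN interaction) and 0 to 2 and 0 (HK2 interaction). For differences between lines they were 0 to 10 and 1 to 5 (shKDM5C), 8 to 16 and 2 to 4 (shYY1) and 11 to 14 and 9 to 12 (Dsh).

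Replicate numbers share only a number: 3 of 21 same-numbered pairs correlated above 0.1 in their deviations from the group means, and with the replicate block 5 members were higher in ACHN shYY1. Of 203 gene results under the block 193 kept their call, 8 gained and 2 lost it. With 3 libraries a group, share differences could not pass 0.05, and the tRNAs of fewest counts could not be tested.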
